A study of Mus musculus with 11 samples.

Results

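A set of 48 genes of the mitotic spindle, the kinetochore and cytokinesis was followed across 11 RNA sequencing libraries of mouse neural stem cells (NSCs). The genes were taken as a fixed list of 48 symbols, matched by GENCODE identifier among the 53801 genes quantified in each library, and all 48 were found. The cells were primary NSCs isolated from the hippocampus of C57BL/6 mouse embryos in the third week of gestation, and no group carried a genetic change. Cells were kept for 7 days either in proliferation medium, which held the growth factors EGF and bFGF with B27 supplement, or in differentiation medium, which lacked both growth factors and held more B27. In each medium they received 1 µM of the benzophenone metabolite 4HBP or ethanol vehicle. There were 3 libraries of 4HBP and 3 of vehicle in proliferation medium, and 3 of 4HBP and 2 of vehicle in differentiation medium. The sample labels spell the compound out as 4-Hydroxybenzoic acid with the abbreviation 4HBP, whereas the study names it 4-hydroxybenzophenone, and 4HBP is used here. The labels do not say whether replicates were separate cultures or separate animals, so the p-values measure the spread between these libraries, which may be technical.

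At mitosis the condensin complex and topoisomerase compact the chromosomes, kinetochores assembled on centromeric chromatin capture spindle microtubules, and kinesin motors build and focus the spindle. The spindle checkpoint holds the cell until every kinetochore is attached. The anaphase-promoting complex with its activator Cdc20 then releases separase, which cuts cohesin, and the midzone proteins set the plane of cytokinesis. Most of these genes are transcribed periodically, late in the cell cycle, through promoter elements read by the MuvB complex with B-Myb and FOXM1, and in NSCs they are widely used as a sign of cycling cells. The 48 genes were grouped by role into 7 sets: spindle checkpoint, mitotic kinases and chromosomal passenger complex, anaphase onset and cohesin release, centromere and kinetochore, spindle motors and assembly, midzone and cytokinesis, and chromosome condensation and surface.

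Each library held between 20822921 and 23438463 expected counts, so that 3 counts, taken as the floor of detection, corresponded to 0.128 to 0.144 CPM (the count scaled to a common library size). Every one of the 48 genes was above it everywhere, with a lowest count of 21 in any library. The labelled cell type was checked against markers. The 8 NSC markers, among them Nes and Sox2, summed to between 7087 and 7990 CPM in the 6 proliferation libraries and to between 4215 and 4373 CPM in the 5 differentiation libraries. Markers of other neural lineages were present as well. In the proliferation libraries astrocyte markers summed to 3120 to 5640 CPM, oligodendrocyte lineage markers to 2176 to 3916 CPM and neuron markers to 928 to 1042 CPM. In the differentiation libraries these sums were 5052 to 5506, 7743 to 8178 and 967 to 1004 CPM. Microglial markers summed to at most 3.53 CPM, with Aif1, Tmem119 and Itgam at or under the floor everywhere, and endothelial markers to at most 2.56 CPM, with Cldn5 and Cdh5 at 0 in every library. Replicate 3 of 4HBP in proliferation medium stood apart from its group: the mean chi-square per gene between it and replicates 1 and 2 was 25.6 and 23.0, against 5.62 between those 2. The median and counts over the 48 genes and the values of Prc1 for 4HBP in that medium are therefore also given without it. Most other values for 4HBP in proliferation medium, among them those of the roles and of single genes, include it. Replicates spread more in one medium than in the other, with a biological coefficient of variation (edgeR) of 0.117 where growth factors were present (6 libraries) and 0.0368 where they were absent (5 libraries).

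The promoters of the genes shared sequence elements that their selection had not used. RefSeq start regions (GRCm38.p6, from 250 bases before to 50 bases after each transcription start) were at hand for 42 of the 48 genes, all but Incenp, Smc4, Spc24, Kif20a, Aurkb and Tpx2. The cell cycle genes homology region (CHR), the element read by MuvB, was searched as TTTGAA and the CCAAT box, read by NF-Y, as CCAAT, each on both strands (the 2 motifs can share 1 end base, and CCAAT on opposite strands can share 2). The CHR letters were present in 29 of 42 genes (69.0%) against 20.2% of 27025 genes of the annotation. CCAAT was present in 31 of 42 (73.8%) against 41.1%. Both were present in 25 of 42 (59.5%) against 8.97%, and neither in 7 genes (16.7% against 47.7%), namely Birc5, Kif18a, Mad2l1, Ncaph, Nuf2, Nusap1 and Pttg1. The RefSeq start lay within 50 bases of the start of the gene in GENCODE for 34 of the 42. For the other 8 (Bub3, Cdca8, Cenpa, Kif2c, Kif4, Mad2l1, Ncapd2 and Pttg1) it lay farther off. The RefSeq starts of Kif2c, Cdca8, Kif4 and Pttg1 are 3867, 2394, 328 and 270 bases inside the gene, and that of Mad2l1 is 169 bases upstream of it. The windows of these genes do not cover the GENCODE start, and Kif2c, Cdca8 and Kif4 are among the genes counted above with the CHR letters. These matches describe the letters of the windows and do not establish binding.

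Start regions of 5 genes are shown from 200 bases before to 30 bases after the start, because they belong to genes on which the results turn. Prc1 is the one gene that passed the test for 4HBP, Cdc20 had the smallest adjusted p in differentiation medium, Mki67 had the highest CPM of the 48 in proliferation medium, Ube2c was among the genes most reduced by the change of medium, and Bub3 was the member with the smallest fall between media (its RefSeq start is 148 bases inside the GENCODE gene). Capitals mark TTTGAA and CCAAT, written TTCAAA and ATTGG where they lie on the other strand. The windows are chr7:80294251-80294480 on the plus strand for Prc1, chr4:118437314-118437543 on the minus strand for Cdc20, chr7:135716350-135716579 on the minus strand for Mki67, chr2:164769729-164769958 on the plus strand for Ube2c and chr7:131560170-131560399 on the plus strand for Bub3.
Prc1: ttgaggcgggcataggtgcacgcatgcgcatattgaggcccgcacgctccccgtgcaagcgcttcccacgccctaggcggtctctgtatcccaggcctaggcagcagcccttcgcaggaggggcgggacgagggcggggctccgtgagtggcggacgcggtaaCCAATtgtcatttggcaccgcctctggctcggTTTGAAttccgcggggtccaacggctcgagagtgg
Cdc20: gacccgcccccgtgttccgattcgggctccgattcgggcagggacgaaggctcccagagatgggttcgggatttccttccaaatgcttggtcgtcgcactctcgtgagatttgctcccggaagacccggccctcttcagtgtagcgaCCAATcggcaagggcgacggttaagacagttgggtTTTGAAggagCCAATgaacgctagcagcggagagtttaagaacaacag
Mki67: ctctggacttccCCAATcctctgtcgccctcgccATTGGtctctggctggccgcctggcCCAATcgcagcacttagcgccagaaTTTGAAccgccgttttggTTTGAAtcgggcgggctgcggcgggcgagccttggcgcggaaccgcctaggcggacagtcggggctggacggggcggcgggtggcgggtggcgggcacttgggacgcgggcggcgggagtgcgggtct
Ube2c: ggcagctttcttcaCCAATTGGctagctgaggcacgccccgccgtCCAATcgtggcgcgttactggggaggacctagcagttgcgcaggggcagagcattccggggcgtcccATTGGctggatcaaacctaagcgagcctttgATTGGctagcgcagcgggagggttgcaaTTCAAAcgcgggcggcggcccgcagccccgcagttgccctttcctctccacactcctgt
Bub3: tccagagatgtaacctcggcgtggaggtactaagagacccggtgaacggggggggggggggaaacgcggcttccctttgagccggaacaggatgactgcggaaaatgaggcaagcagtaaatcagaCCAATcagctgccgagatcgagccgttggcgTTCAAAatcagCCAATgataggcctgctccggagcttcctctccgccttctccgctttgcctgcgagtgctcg

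Prc1 held 1 CHR and 1 CCAAT in this stretch, and Cdc20 held a CHR between 2 CCAAT boxes. Mki67 held 2 CHR matches near 3 CCAAT boxes, all upstream of the start. Bub3, which fell least of the 47 genes that were lower in differentiation medium, held the same kinds of element as Ube2c, which was among the 3 that fell most. Across the 42 genes the CHR was most often placed just after the start. Within the first 25 bases downstream 11 of 42 (26.2%) had one, against 1.25% of all genes. CCAAT was most often found in the bins from 75 to 50 and from 25 to 0 bases upstream, each in 11 of 42. Of all genes 7.28% and 4.16% had it there, and the bin from 75 to 50 was also the most frequent over all genes.

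**Figure D1:**
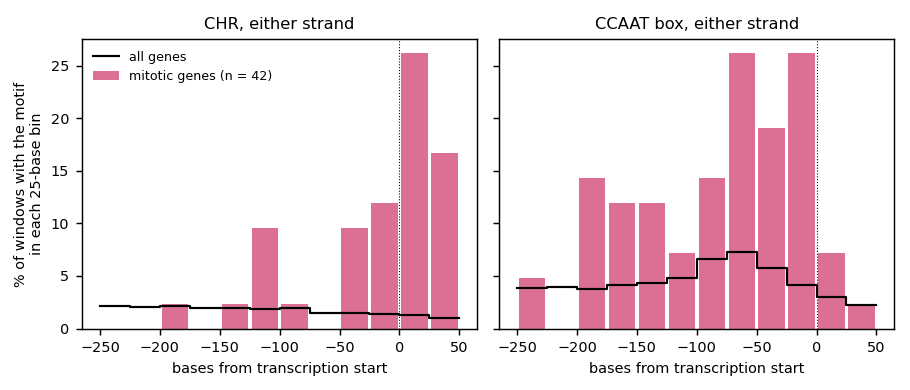
Share of start regions (y axis, percent) with the CHR (TTTGAA, left) or the CCAAT box (right) on either strand in each 25-base bin, by distance in bases from the transcription start (x axis). Bars are the 42 mitotic genes with a window and the black line all 27025 genes; the tallest CHR bar, just after the start, stands at 26.2% against 1.25% for all genes.

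Differentiation medium lowered nearly the whole set. Under vehicle, 47 of 48 genes were lower in differentiation than in proliferation medium and 1, Pttg1, was higher (edgeR quasi-likelihood test, Benjamini-Hochberg adjusted p under 0.05 over 15920 genes); among all genes tested 30.6% were lower and 30.8% higher. The median log2 fold change of the 48 was -2.81, against 0.03 over all genes, and values ran from -3.46 for Sgo1 to 0.29 for Pttg1. The libraries of the 2 media did not overlap in CPM for any of the 48 genes, 47 lower and 1 higher, where 32.4% and 44.2% of all genes were so separated. Under 4HBP the counts were the same, 47 lower and 1 higher (33.8% and 33.3% of all genes), with a median log2 fold change of -2.09 against 0.01 over all genes. Both contrasts use one fit of all 11 libraries. In bulk RNA, fewer dividing cells and less RNA of these genes per cell cannot be told apart. NSC markers fell in the same direction, 7 of 8 lower under vehicle, and the 8 oligodendrocyte lineage markers summed to 2176 to 3916 CPM in proliferation medium and to 7743 to 8178 CPM in differentiation medium. Fibroblast and mural cell markers summed to 2.27 to 3.71 CPM and then to 28.2 to 32.5 CPM. That rise was carried by Pdgfrb, at a mean of 0.177 and then 9.475 TPM (corrected for transcript length) under vehicle. Rgs5 went down, from a mean of 0.78 to 0.295 TPM under vehicle. Col1a1, Col1a2, Dcn and Lum were at most 0.24 TPM in any library. The share of counts from mitochondrial genes went from 8.49 to 9.60% down to 5.76 to 6.24%. The part of such shifts in the fall of the mitotic genes was not tested.

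**Figure D2:**
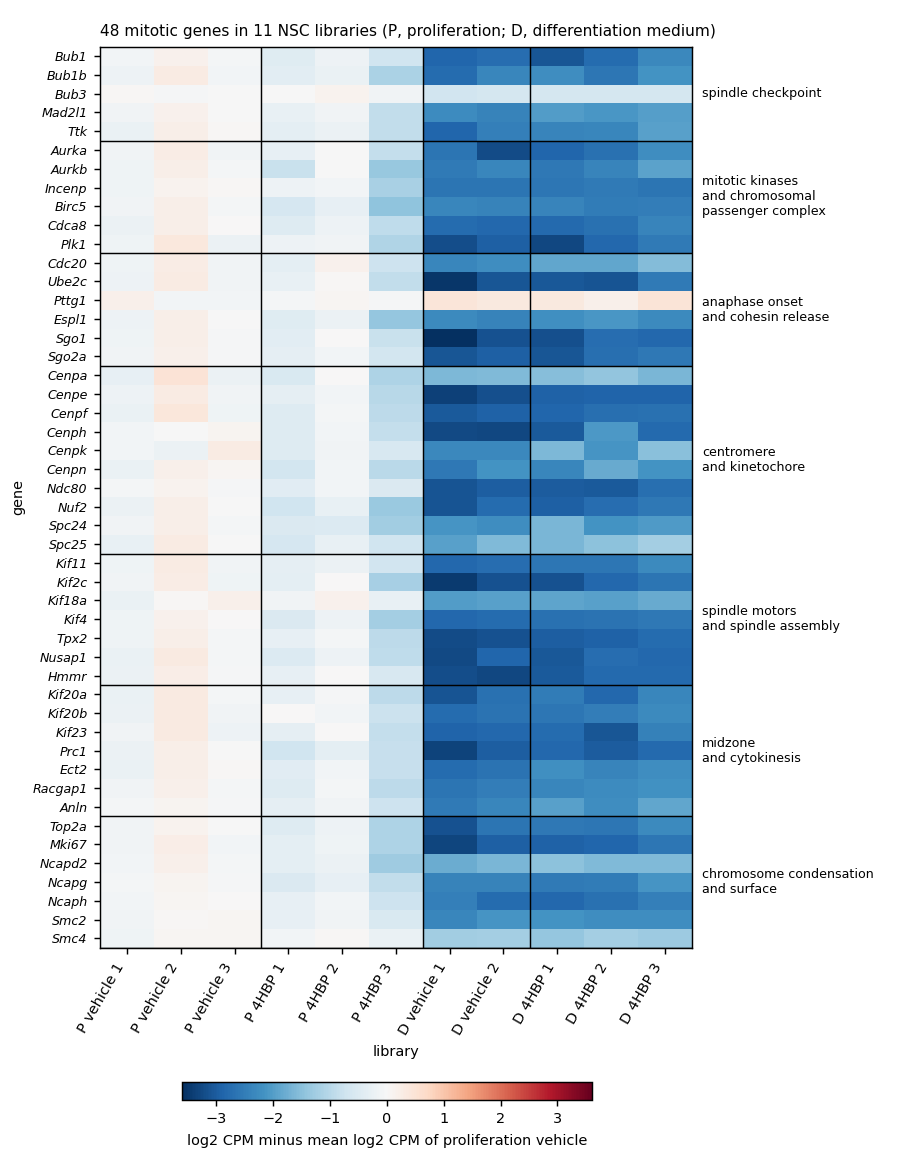
Level of each of the 48 genes (rows, grouped by role) in each of the 11 libraries (columns), as log2 CPM minus the mean log2 CPM of the 3 proliferation vehicle libraries, blue for lower and red for higher. The 5 differentiation libraries are blue in every row but that of Pttg1, with Bub3 and Smc4 the palest, and replicate 3 of 4HBP is the bluest column in proliferation medium.

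The depth of the fall differed between genes. Sgo1, the shugoshin that guards centromeric cohesin, was at 15.0, 19.3 and 16.4 CPM in the 3 proliferation vehicle libraries and at 1.32 and 1.92 CPM in the 2 differentiation vehicle libraries, so that 9.59% of its mean level was left. Ube2c, the ubiquitin-conjugating enzyme of the anaphase-promoting complex, went from 42.3, 59.2 and 43.7 CPM to 4.20 and 5.60 CPM, a log2 fold change of -3.39 ± 0.30 (SE). Kif2c, a kinesin that depolymerises microtubules at the centromere, went from 27.1, 35.8 and 26.7 CPM to 2.74 and 3.37 CPM (-3.37 ± 0.34). These 3 genes had the largest fitted falls of the 48, and no library of one medium reached the range of the other.

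At the other end were Bub3, Smc4 and Pttg1. Bub3, which brings the checkpoint kinases Bub1 and BubR1 to kinetochores, was at 101, 94.1 and 97.5 CPM in proliferation vehicle and at 60.1 and 63.2 CPM in differentiation vehicle, which left 63.2% of its level (log2 fold change -0.75 ± 0.08). Smc4, the core ATPase subunit shared by both condensins, was at 93.8, 109.8 and 108 CPM and then at 43.6 and 44.3 CPM, which left 42.3% (-1.33 ± 0.11). Both fell, but by far less than the median of the 48. Pttg1, the securin that holds separase inactive, was at 19.7, 15.9 and 16.2 CPM in proliferation vehicle and at 23.1 and 21.8 CPM in differentiation vehicle (0.29 ± 0.11, edgeR adjusted p = 0.033), and under 4HBP at 16.5, 18.1 and 16.7 CPM against 21.8, 19.7 and 23.7 CPM (0.30 ± 0.10, edgeR adjusted p = 0.016). Within each treatment no differentiation library reached down to the proliferation range, by margins close to the replicate spread. The call for Pttg1 under vehicle rested on single libraries: it held in 1 of the 5 omissions of a vehicle library, that of replicate 1 in proliferation medium (edgeR adjusted p from 0.0088 to 0.16), and was lost without a filter on low counts (edgeR adjusted p = 0.056). Under 4HBP it held in 5 of the 6 omissions of a 4HBP library, and was lost without replicate 3 in differentiation medium (edgeR adjusted p = 0.081).

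**Figure D3:**
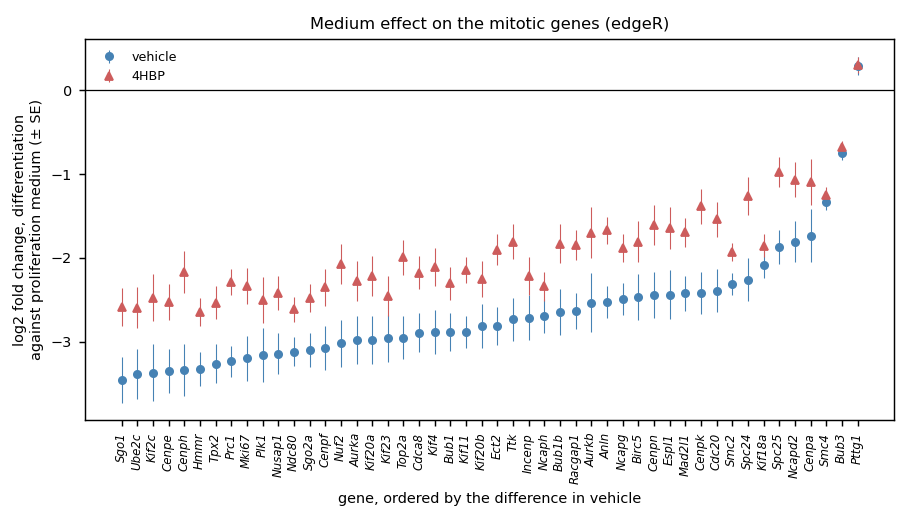
Log2 fold change of each of the 48 genes in differentiation against proliferation medium (y axis), under vehicle (circles) and under 4HBP (triangles), with standard errors from edgeR, genes ordered by the value under vehicle. Every gene except Pttg1 lies below 0 under both treatments, and the vehicle values run from -3.46 to 0.29.

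4HBP in proliferation medium was compared with vehicle over the 6 proliferation libraries, to ask how the compound bears on NSCs supplied with growth factors. All 48 genes had a log2 fold change below 0 (47 when scaled by library totals, Bub3 then being above it), where 49.8% of 14449 genes did, with a median of -0.46 against 0.00 over all genes and a range from -0.75 to -0.03. A single gene, Prc1, passed the test over all genes (3.69% of all genes were called lower). DESeq2 called 9 of the 48, all lower, and 820 of 14449 genes lower. Limma on log2(CPM+1) with adjusted p called none of the 48, and 11 of 23841 genes lower. At an unadjusted p under 0.05 in edgeR there were 27 of 48, all lower, where 12.3% of all genes were lower at that level. In 19 of 48 genes every 4HBP library lay below every vehicle library (12.6% of all genes), and in none was the reverse seen. The 48 genes are expressed together and are not independent of each other, so these counts describe the libraries and are not repeated tests.

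The direction rested unequally on the libraries. Summed over the 48 genes, expression was 2061, 2431 and 1435 CPM in the 3 libraries of 4HBP and 2381, 3019 and 2542 CPM in the 3 of vehicle, so that the groups overlapped in their sums. Replicate 3 of 4HBP was the lowest of the 6 in 47 of 48 genes, and replicate 2 of vehicle was the highest in 42. Without that 4HBP library the median log2 fold change was -0.27, with 47 of 48 below 0, 2 called and 19 at an unadjusted p under 0.05 (edgeR). Of all 14449 genes, 726 were then called lower and 1834 were lower at the unadjusted level. Without that vehicle library the median was -0.34, with 48 of 48 below 0 and none called (edgeR), 6 at an unadjusted p under 0.05. Over all genes these numbers were 68 called lower and 1206 lower at the unadjusted level. Leaving out each library in turn gave 47 or 48 genes below 0, a median between -0.64 and -0.27, and 0 to 3 called. Over all genes 60 to 726 were called lower in these omissions.

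**Figure D4:**
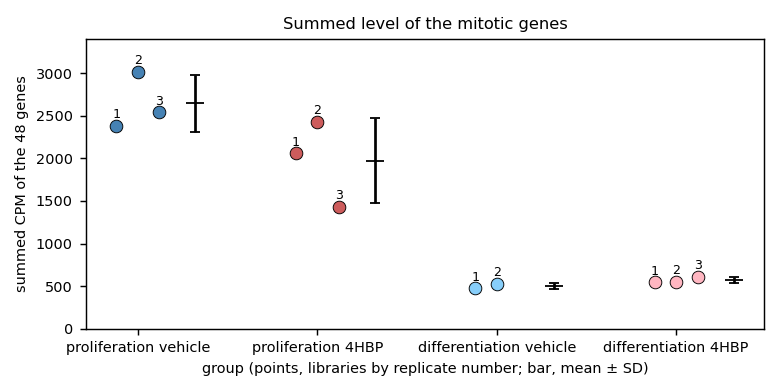
Summed CPM of the 48 genes (y axis, from 0) in each library, by group (x axis), points numbered by replicate and bars giving the mean ± SD beside them. The proliferation libraries lie between 1435 and 3019 CPM and their 2 groups overlap, while the differentiation libraries lie between 474 and 606 CPM with all 3 of 4HBP above both of vehicle.

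Other markers moved in the same libraries. The 6 astrocyte markers, among them Gfap and Aqp4, summed to 3120 to 3799 CPM under 4HBP and to 4557 to 5640 CPM under vehicle in proliferation medium, with 4 of 6 lower by the edgeR test, and the oligodendrocyte lineage markers summed to 2176 to 3431 CPM against 3241 to 3916 CPM. The 8 NSC markers summed to 7233 to 7690 CPM against 7087 to 7990 CPM, and none of the 8 passed the test. Their part in the lower mitotic genes was not tested.

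In differentiation medium the comparison of 4HBP with vehicle gave values on the other side of 0. Of the 48 genes, 44 had a log2 fold change above 0, where 49.7% of 15484 genes did, with a median of 0.24 against -0.00 over all genes and a range from -0.09 for Birc5 to 0.69 for Cenph. None passed the edgeR test (1.26% of all genes were called higher), and the smallest edgeR adjusted p was 0.062, for Cdc20. None passed DESeq2, which called 139 of 15484 genes higher. Limma with adjusted p called 0 of all 25711 genes, so it cannot tell the 48 from the rest. At an unadjusted p under 0.05 in edgeR there were 17 of 48, all higher, where 7.94% of all genes were higher at that level. The number was 8 by DESeq2, 4 by voom with weights per medium and 2 in the edgeR fit of all 11 libraries. Over all genes 1378 of 15484, 2218 of 15920 and 644 of 15920 reached that level in these fits. Of those, 692, 1069 and 297 were lower and the rest higher. In 20 of 48 genes all 3 libraries of 4HBP lay above both of vehicle (15.0% of all genes). The sums over the 48 genes were 545, 552 and 606 CPM under 4HBP and 474 and 526 CPM under vehicle. These do not overlap, but replicate 1 of vehicle was the lowest of the 5 in 30 genes and replicate 3 of 4HBP the highest in 33. Without that vehicle library the median log2 fold change was 0.15. The 8 NSC markers summed to 4215 to 4261 CPM under 4HBP and to 4370 to 4373 CPM under vehicle, and 1 of them, the fatty acid binding protein Fabp7, rose (0.23 ± 0.05, edgeR adjusted p = 0.017), while 5 of the 8 had values below 0. None of the astrocyte or oligodendrocyte lineage markers passed the test. Their part in the values of the mitotic genes was not tested.

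Cdc20, the activator of the anaphase-promoting complex, was at 7.11, 7.07 and 8.79 CPM under 4HBP and at 5.11 and 5.50 CPM under vehicle in differentiation medium, with all 3 above both. Its log2 fold change was 0.53 ± 0.14 (edgeR adjusted p = 0.062). In proliferation medium it was at 20.4, 28.8 and 15.5 CPM under 4HBP and at 23.4, 31.6 and 23.9 CPM under vehicle, groups that overlapped. Of its 40-base transcript words 16.3% recur elsewhere, mostly in the pseudogene Gm7856, so its counts could be shared with that locus.

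The difference between the 2 effects of 4HBP was tested as the interaction in the fit of all 11 libraries, as the proliferation effect minus the differentiation effect. It was below 0 for all 48 genes, or for 47 when scaled by library totals, Pttg1 then being above it (50.5% of 15920 genes), with a median of -0.74 against 0.00 over all genes. Only Prc1 passed the test (-0.95 ± 0.23, edgeR adjusted p = 0.038), where 2.48% of all genes were called lower and 4.49% in either direction, and 30 of 48 had an unadjusted p under 0.05, all below 0 (10.4% of all genes). DESeq2 called 6 of the 48, where it called 627 of 15920 genes lower. Limma on log2(CPM+1) with adjusted p called none of the 48, and 127 of 27295 genes lower. In proliferation medium the call for Prc1 was lost without replicate 1 of 4HBP (edgeR adjusted p = 0.054) or replicate 2 of vehicle (edgeR adjusted p = 0.077). It was also lost without any single 4HBP library in differentiation medium (edgeR adjusted p from 0.068 to 0.099). Without replicate 1 or 2 of vehicle there, its value was -0.77 or -1.15. No call is given for these 2 fits, since a single library of that group was left. Leaving out each library in turn gave 45 to 48 genes below 0 and 0 to 7 called. The interaction is also the medium effect under vehicle minus that under 4HBP, so the smaller median fall under 4HBP given above and this difference are one result. Both 4HBP contrasts enter it and it adds no further samples.

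**Figure D5:**
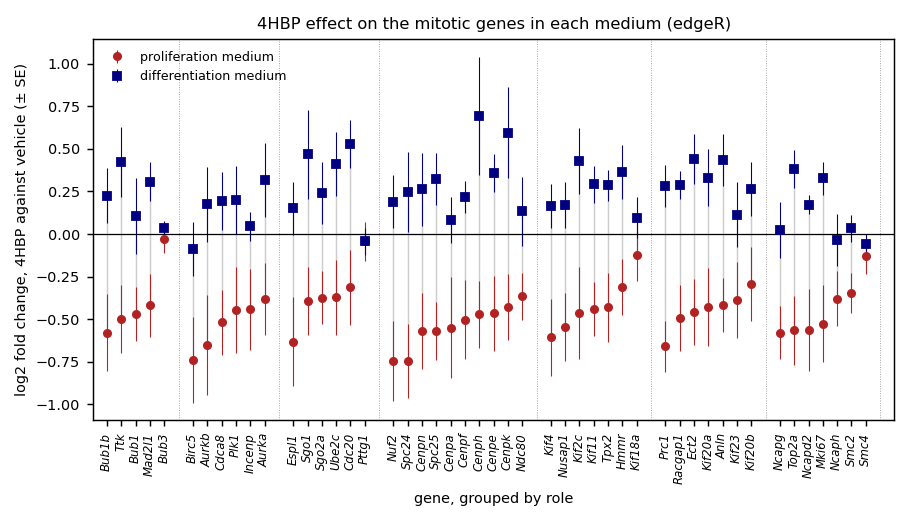
Log2 fold change of each of the 48 genes for 4HBP against vehicle (y axis, with standard errors from edgeR) in proliferation medium (circles) and differentiation medium (squares), grouped by role and joined by a line per gene. All 48 circles lie below 0 (that of Bub3 above it when scaled by library totals) and 44 of 48 squares above it, and Prc1 is the one gene whose circle passed the test over all genes.

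Midzone and cytokinesis genes held the one called gene. Prc1 crosslinks antiparallel microtubules of the anaphase midzone and was at 48.7, 62.8 and 45.0 CPM under 4HBP and at 69.8, 92.9 and 79.1 CPM under vehicle in proliferation medium. The highest 4HBP library lay below the lowest vehicle library. It fell by 0.66 ± 0.15 on the log2 scale (edgeR adjusted p = 0.032), and the value was -0.54 (edgeR adjusted p = 0.030) without replicate 3 of 4HBP and -0.54 (edgeR adjusted p = 0.13) without replicate 2 of vehicle; over all single omissions its edgeR adjusted p ran from 0.030 to 0.13 and the call held in 2 of 6. In differentiation medium Prc1 was at 11.3, 10.1 and 11.6 CPM under 4HBP and at 7.94 and 10.2 CPM under vehicle, groups that overlapped. The gene lies at chr7:80294450-80316259 on the plus strand in GRCm38.

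Racgap1, part of the centralspindlin complex that recruits the cytokinetic machinery, was the most abundant midzone gene in TPM (a level corrected for transcript length as well as depth), 48.8 ± 6.10 (SD, n = 3) in proliferation vehicle and 10.6 ± 1.07 (n = 2) in differentiation vehicle. Its CPM under 4HBP was 68.0, 89.1 and 49.1 against 86.0, 108 and 90.5 under vehicle in proliferation medium, and 18.6, 19.8 and 20.7 against 15.3 and 17.0 in differentiation medium. The first pair of groups overlapped and the second did not. Its log2 fold changes were -0.49 ± 0.20 and 0.29 ± 0.08, neither past the threshold (edgeR adjusted p = 0.16 and 0.086). Kif20b, a kinesin of the midbody, had the smallest value of the 7 in proliferation medium (-0.29 ± 0.22), at 27.9, 25.6 and 16.3 CPM under 4HBP and 23.8, 34.6 and 25.4 CPM under vehicle, and in differentiation medium it was at 4.56, 4.92 and 5.67 CPM against 4.01 and 4.39 CPM. In this role 7 of 7 genes were below 0 for 4HBP in proliferation medium, with a median of -0.43, and 7 of 7 above 0 in differentiation medium, with a median of 0.29.

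Among the 10 centromere and kinetochore genes all were below 0 in proliferation medium, with a median log2 fold change of -0.53 for 4HBP, and all were above 0 in differentiation medium, with a median of 0.25; none passed the test in either. Nuf2, a subunit of the Ndc80 complex that binds microtubules, was at 24.5, 33.6 and 16.1 CPM under 4HBP and at 35.1, 46.9 and 40.2 CPM under vehicle in proliferation medium. The groups did not overlap and the log2 fold change was -0.75 ± 0.24 (edgeR adjusted p = 0.087). Spc25, of the same complex, was the most abundant of the 10 by TPM, 31.5 ± 7.53 (SD, n = 3) in proliferation vehicle, and its CPM was 13.9, 17.5 and 13.0 under 4HBP against 17.6, 25.8 and 20.9, the highest 4HBP library just below the lowest vehicle library. Ndc80, which names the complex, had the smallest value of the 10, -0.37 ± 0.14, from 16.6, 20.8 and 15.5 CPM under 4HBP and 21.2, 24.1 and 21.4 CPM under vehicle, again without overlap. All of these fell between the media under vehicle, to 13.0%, 29.0% and 12.2% of their proliferation means.

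Nuf2 was at 5.32, 6.04 and 6.82 CPM under 4HBP and at 4.70 and 5.93 CPM under vehicle in differentiation medium, so the groups overlapped there. The values for Spc25 were 6.71, 7.59 and 9.03 CPM against 5.43 and 7.00 CPM, and for Ndc80 they were 2.77, 2.72 and 3.41 CPM against 2.55 and 2.86 CPM, which overlapped as well. Cenph, a subunit of the constitutive centromere network, had the largest value of the 48 in differentiation medium, 0.69 ± 0.35, from 1.12, 2.16 and 1.30 CPM against 0.958 and 0.939 CPM. Its groups did not overlap, but 1 of the 3 4HBP libraries, at 2.16 CPM, stood above the other two, and its edgeR adjusted p was 0.35.

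Chromosome condensation and surface genes, which include the best-known proliferation marker, had medians for 4HBP of -0.53 in proliferation medium (7 of 7 below 0) and 0.03 in differentiation medium (5 of 7 above 0), none past the test. Mki67, which coats mitotic chromosomes as Ki-67, was at 269, 310 and 159 CPM under 4HBP and at 314, 408 and 323 CPM under vehicle in proliferation medium, the highest 4HBP library just below the lowest vehicle library (-0.53 ± 0.22, edgeR adjusted p = 0.18). In differentiation medium it was at 46.2, 47.8 and 57.2 CPM under 4HBP and at 35.0 and 45.4 CPM under vehicle, without overlap (0.33 ± 0.10, edgeR adjusted p = 0.10). The change of medium left 11.5% of its mean CPM under vehicle and 20.5% under 4HBP.

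Ncapd2, a condensin I subunit, had the highest mean TPM of this role over all libraries, with 77.8 ± 9.82 (SD, n = 3) in proliferation vehicle. Its CPM was 117, 129 and 61.2 under 4HBP and 137, 167 and 142 under vehicle in proliferation medium, and 52.8, 49.6 and 49.7 against 42.9 and 47.4 in differentiation medium, neither pair overlapping, and neither difference passed the test. Ncapg, of the same complex, had the largest value of the role in proliferation medium, -0.58 ± 0.16 (edgeR adjusted p = 0.054), from 17.7, 20.8 and 13.7 CPM against 24.3, 27.3 and 24.7 CPM, and in differentiation medium its groups, at 4.38, 4.40 and 5.81 CPM and at 4.79 and 4.78 CPM, overlapped. Smc4 had the smallest, -0.13 ± 0.10, at 96.3, 107 and 88.0 CPM under 4HBP beside the vehicle values given above, and at 39.6, 44.5 and 42.2 CPM under 4HBP in differentiation medium. Its groups overlapped in both media.

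The 5 spindle checkpoint genes were all below 0 for 4HBP in proliferation medium, with a median of -0.47, and all above 0 in differentiation medium, with a median of 0.22, none past the test. Bub1b, the gene of BubR1, which inhibits Cdc20 in the checkpoint, was at 28.0, 31.0 and 16.7 CPM under 4HBP and at 32.2, 44.6 and 34.2 CPM under vehicle in proliferation medium. The groups did not overlap (-0.58 ± 0.22, edgeR adjusted p = 0.15). In differentiation medium it was at 7.74, 6.04 and 8.26 CPM against 5.34 and 7.21 CPM, which overlapped. Bub3 was the most abundant of the 5, at 64.2 ± 2.68 TPM (SD, n = 3) in proliferation vehicle, and its groups overlapped in both media, at 97.0, 107 and 89.7 CPM under 4HBP in proliferation medium and at 62.8, 62.7 and 63.2 CPM in differentiation medium (-0.03 ± 0.09 and 0.03 ± 0.05). Both of its small values changed sign under an alternative.

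Mitotic kinases and the chromosomal passenger complex, which corrects wrong attachments, were likewise all 6 below 0 in proliferation medium, with a median of -0.48, and 5 of 6 above 0 in differentiation medium, with a median of 0.18. Birc5, the survivin subunit, had the largest value of the 6 in proliferation medium, -0.74 ± 0.25 (edgeR adjusted p = 0.11), from 14.8, 18.2 and 8.21 CPM against 20.5, 25.7 and 21.3 CPM, without overlap. It was one of 4 genes below 0 in differentiation medium, at 4.29, 3.88 and 3.99 CPM against 4.39 and 4.27 CPM. Incenp, the scaffold of the complex, was the most abundant of the 6 at 37.4 ± 3.08 TPM (SD, n = 3) in proliferation vehicle. Its CPM was 73.9, 78.7 and 38.0 under 4HBP and 76.2, 91.9 and 86.2 under vehicle in proliferation medium, with 1 of the 3 4HBP libraries far below the other 5, and in differentiation medium 14.0, 14.5 and 13.8 against 13.7 and 13.7. Aurka, the centrosomal Aurora kinase, had the smallest value of the 6, -0.38 ± 0.21, at 19.7, 24.0 and 13.4 CPM against 21.8, 28.9 and 22.1 CPM, and in differentiation medium it was at 3.35, 3.71 and 5.09 CPM against 3.92 and 2.60 CPM. Both pairs of groups overlapped.

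For the 6 anaphase onset and cohesin release genes the medians for 4HBP were -0.37 in proliferation and 0.33 in differentiation medium, and none passed the test. Espl1, the protease separase, was at 15.6, 18.1 and 8.06 CPM under 4HBP and at 18.5, 24.3 and 20.8 CPM under vehicle in proliferation medium, without overlap (-0.63 ± 0.26, edgeR adjusted p = 0.17), and at 4.56, 4.92 and 4.27 CPM against 4.33 and 3.97 CPM in differentiation medium. Its inhibitor Pttg1 had log2 fold changes of -0.04 ± 0.11 and -0.04 ± 0.08 in the 2 media, each of which changed sign when 1 library was left out. Pttg1 had the highest mean TPM of the 6 over all libraries, at 45.9 ± 5.17 (SD, n = 3) in proliferation vehicle and 69.7 ± 1.70 (n = 2) in differentiation vehicle, next to 83.4 ± 16.0 and 10.2 ± 2.23 TPM for Ube2c. On this length-corrected scale Ube2c was thus above Pttg1 in proliferation medium and below it in differentiation medium. For 4HBP, Sgo1 was at 12.9, 16.8 and 9.69 CPM in proliferation and at 1.88, 2.50 and 2.35 CPM in differentiation medium, and Ube2c at 39.5, 48.9 and 26.0 CPM and at 5.77, 5.56 and 8.26 CPM, each overlapping its vehicle group in both media.

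Spindle motors and assembly factors completed the list, with 7 of 7 below 0 for 4HBP in proliferation medium (median -0.44) and 7 of 7 above 0 in differentiation medium (median 0.29), none past the test. Tpx2, which activates Aurora A and seeds microtubules around chromosomes, was the most abundant of the 7 at 47.8 ± 6.83 TPM (SD, n = 3) in proliferation vehicle. It was at 99.9, 117 and 64.1 CPM under 4HBP against 112, 144 and 116 CPM in proliferation medium, which overlapped, and at 15.7, 16.3 and 18.1 CPM against 13.3 and 14.1 CPM in differentiation medium, which did not. Kif4, a chromosome-bound kinesin that also works at the midzone with Prc1, had the largest value of the 7 in proliferation medium, -0.61 ± 0.23 (edgeR adjusted p = 0.14), from 27.6, 35.0 and 16.9 CPM against 35.3, 43.8 and 39.8 CPM, and in differentiation medium it was at 6.08, 6.30 and 6.68 CPM against 5.61 and 5.76 CPM, without overlap in either. Kif18a, which damps chromosome oscillations, had the smallest, -0.12 ± 0.15, at 25.2, 30.6 and 22.8 CPM against 23.5, 28.7 and 31.7 CPM. In differentiation medium Kif18a was at 7.44, 7.13 and 7.89 CPM against 6.84 and 7.18 CPM. Kif2c was at 23.2, 30.2 and 12.9 CPM under 4HBP in proliferation medium, overlapping vehicle, and at 3.40, 4.14 and 4.80 CPM in differentiation medium, all above vehicle (0.43 ± 0.19, edgeR adjusted p = 0.29).

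Genes of the same pathway outside the list were counted in 4 groups. Of 71 other mitotic genes, 69 were lower in differentiation than in proliferation medium under vehicle and 64 under 4HBP, with median log2 fold changes of -2.27 and -1.62 and none higher (30.6% and 33.8% of all genes were lower). For 4HBP in proliferation medium 5 of the 71 were lower and none higher (3.69% of all genes were lower), with a median of -0.47. In differentiation medium 1 was higher and none lower, with a median of 0.15, a number close to the 1.26% of all genes that were higher. Cit, the citron kinase of the midbody, was at 15.5, 19.4 and 12.1 CPM under 4HBP and at 24.1, 28.2 and 24.8 CPM under vehicle in proliferation medium, and fell by 0.74 ± 0.17 on the log2 scale (edgeR adjusted p = 0.034). Kntc1, which loads dynein and checkpoint proteins at kinetochores, fell by 0.68 ± 0.17 (edgeR adjusted p = 0.047). The one gene that rose in differentiation medium was Ccnb1, cyclin B1, at 7.74, 8.02 and 8.45 CPM against 5.61 and 5.89 CPM (0.49 ± 0.12, edgeR adjusted p = 0.048), with 25.4% of its 40-base transcript words shared, mostly with its pseudogene Ccnb1-ps.

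The 3 other groups had medians nearer 0; under vehicle 30.6% of all genes were lower and 30.8% higher between the media. Of 16 subunits and partners of the anaphase-promoting complex, which include Fzr1 and Ube2s, 10 were lower in differentiation medium under vehicle, with a median log2 fold change of -0.32, and none passed the test for 4HBP in either medium. Of 11 cohesin genes and regulators, 10 were lower between the media under vehicle, with a median of -0.42, the largest being Esco2, the acetyltransferase that acts on cohesin in S phase (-3.15 ± 0.26). Esco2 was also the one of the 11 called for 4HBP in proliferation medium, at 11.97, 13.1 and 7.75 CPM against 19.0, 20.5 and 20.1 CPM, a fall of 0.88 ± 0.19 (edgeR adjusted p = 0.027). Of 20 DREAM, MuvB and FOXM1 regulators, 13 were lower and 2 higher under vehicle between the media, with a median of -0.53. Foxm1 and Mybl2 (B-Myb) were the 2 activators with the largest falls, -2.66 ± 0.24 and -2.49 ± 0.31, and for 4HBP in proliferation medium their values were -0.58 ± 0.22 and -0.58 ± 0.28, not past the test. E2f8, an atypical repressor of the E2F family, fell by 0.81 ± 0.18 with 4HBP in proliferation medium (edgeR adjusted p = 0.030), and E2f5 rose by 0.32 ± 0.07 (edgeR adjusted p = 0.033).

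A pair of properties of the quantification were checked. The expression-weighted transcript length separated the media in 3 of 48 genes (Ncapd2, Spc24 and Cenpk), each longer in differentiation medium, or 6.25% against 16.1% of all genes tested. Shared sequence could divert reads for few of the 48: over 5% of 40-base words recurred in other genes for Cdc20 and for Plk1 (10.4%, mostly in Plk-ps1), and 5% or less for the other 46.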

How the data were processed

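Libraries were prepared by the authors with a stranded TruSeq mRNA kit and sequenced in pairs on an Illumina instrument. Reads were trimmed with cutadapt, aligned with Bowtie2 (2.2.9) to mm10 with GENCODE vM17 and quantified with RSEM (1.3.0), as the study's methods and processing notes state. The deposited files hold RSEM expected counts, TPM and FPKM per gene as made by the authors; FPKM was not used further. Expected counts divide reads that fit several genes, so 18.6% of values above 0 were not whole, and they were rounded here. CPM is the expected count scaled to a library's total. Each 4HBP contrast was fitted within its medium, and medium contrasts and the interaction over all 11 libraries, with edgeR (4.0.16, TMM, filterByExpr, glmQLFTest, two-sided, Benjamini-Hochberg adjusted p under 0.05). The study itself used limma on log2(CPM+1), with p under 0.05, not stated to be adjusted, and an absolute log2 fold change over 0.58. Its thresholds were run here as an alternative with unadjusted p (limma 3.58.1). Limma with adjusted p and DESeq2 (1.42.0) were further alternatives. The fits were tested on simulated data. Named in each role were the gene with the highest mean TPM and those with the largest and smallest change for 4HBP in proliferation medium, every called gene, and the 3 that differed most and least between media; in each other list, the 2 most changed among those called. Cdc20, Mki67, Cenph and Fabp7 were added after their values were seen. Members and lists were chosen with earlier results of these data known. Gene positions are those of GENCODE vM21 (99.7% of identifiers matched).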

Additional observations from a re-analysis of the deposited data

Results flagged for a closer look

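The effect of 4HBP differed between the media by the interaction test in 5 of the 166 genes considered, each as the proliferation effect minus the differentiation effect on the log2 scale. That is 3.01% of them, all below 0, where 2.48% of all 15920 genes tested were called below 0 and 4.49% in either direction, so the number is close to that over all genes. They were Prc1 (-0.95, edgeR adjusted p = 0.038), the citron kinase Cit (-0.97, edgeR adjusted p = 0.045), the MAD2-related protein Mad2l2 (-0.58, edgeR adjusted p = 0.011), the kinetochore protein Pmf1 (-0.52, edgeR adjusted p = 0.039) and the repressor E2f8 (-1.12, edgeR adjusted p = 0.027). As given above, the call for Prc1 was lost in several omissions of a single library. E2f8 was at 14.2, 18.6 and 11.6 CPM under 4HBP and at 23.2, 24.3 and 28.4 CPM under vehicle in proliferation medium, without overlap. In differentiation medium it was at 6.22, 7.03 and 7.35 CPM against 5.52 and 5.63 CPM, again without overlap and in the other direction. Mad2l2 was at 29.6, 32.4 and 32.6 CPM against 44.3, 44.1 and 38.0 CPM, and then at 37.3, 33.4 and 33.5 CPM against 32.8 and 31.2 CPM. Neither gene passed the test in differentiation medium alone, where their log2 fold changes were 0.30 ± 0.13 and 0.12 ± 0.06.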

How the results depend on the processing

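The change of medium gave 47 genes called lower, under both vehicle and 4HBP. This count was the same under every alternative and every omission that left 2 or more libraries in each group. The remaining gene, Pttg1, was called higher in some of these settings and not in others. Counts for 4HBP were less stable. In proliferation medium, where 1 gene was called, DESeq2 called 9, edgeR without a filter on low counts 11, a single edgeR fit of all 11 libraries 8 and voom with weights per medium 7. Over all genes these settings called lower, in that order, 820 of 14449, 775 of 23841, 1301 of 15920 and 853 of 15920. Limma with adjusted p called 0 with either pseudocount (1 or 0.1), and only 18 and 22 of all 23841 genes in either direction. The study's thresholds in limma gave 5 (306 of 23841 genes were lower by them), but they use unadjusted p, so that count is not on the same footing. Leaving out single libraries gave 0 to 3, where 60 to 726 of 14449 genes were called lower. In differentiation medium, where none was called, edgeR without a filter called 4, higher in each case, where 380 of 25711 genes were called higher. Omissions of a 4HBP library there gave 0. For the interaction, where 1 was called, DESeq2 gave 6, no filter 38, voom 3 and limma with adjusted p 0 with either pseudocount. Over all genes DESeq2 called 627 of 15920 lower, no filter 944 of 27295 and voom 564 of 15920. Limma called 127 and 52 of 27295 lower with pseudocounts 1 and 0.1. The study's thresholds, with unadjusted p, gave 21, where 483 of 27295 genes were lower. Single omissions that left 2 or more libraries in each group gave 0 to 7, with 7 without replicate 2 and 5 without replicate 3 of 4HBP in proliferation medium. In those last 2 fits 354 and 601 of 15920 genes were called lower. The cause of these differences was not tested. Samples were not paired by their replicate numbers, since the deviations of same-numbered libraries correlated at -0.034, -0.11 and -0.13 in the proliferation groups and at 0.086 and -0.0058 in the differentiation groups. A replicate block in edgeR gave 1 called gene for 4HBP in proliferation medium and 2 for 4HBP in differentiation medium (there replicate 3 of 4HBP has no partner), 47 and 48 between media under vehicle and 4HBP, and 2 for the interaction. With the block, 255 of 14449 genes were called lower for 4HBP in proliferation medium and 367 of 15484 higher in differentiation medium. For the interaction 363 of 15920 were called lower.

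Values near 0 changed sign. Scaled by library totals, Bub3 became 0.0031 for 4HBP in proliferation medium and Pttg1 0.036 for the interaction; with the replicate block Ncapg became -0.12 for 4HBP in differentiation medium. Over single omissions, the value for 4HBP in proliferation medium ran from -0.098 to 0.055 for Bub3 and from -0.094 to 0.052 for Pttg1. In differentiation medium it ran from -0.0059 to 0.075 for Bub3, from -0.11 to 0.025 for Pttg1 and from -0.12 to 0.097 for Ncapg. For the interaction it ran from -0.15 to 0.016 for Bub3, from -0.077 to 0.088 for Pttg1 and from -0.17 to 0.011 for Smc4. Over all genes tested, the number called ranged over the alternatives from 18 to 2668 for 4HBP in proliferation medium (1074 as reported), from 0 to 777 in differentiation medium (395), from 5219 to 10481 and from 5697 to 11214 between media under vehicle and 4HBP (9771 and 10692), and from 125 to 1615 for the interaction (715). Where vehicle in differentiation medium was left with 1 library, it was assumed to vary like the other groups.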
